A study of Mus musculus with 2 samples.

Results

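Elane-positive neutrophil progenitors, Kit-positive bone marrow cells that express the primary granule proteases but few secondary granule transcripts, were described across genes and antibody tags in 2 CITE-seq libraries of the mouse. They came to 766 of the 14068 cells that passed the filters (5.45%), of which 400 were control cells and 366 came from the library labelled Utx-deleted. Members were chosen by their own transcript counts. Elane, Prtn3 and Ctsg together had to give at least 0.5% of a cell's gene UMIs (unique molecular identifiers, which count captured transcripts), and Ltf, Camp, Ngp, S100a8, S100a9 and Lcn2 together less than 2%. Cells with more than 4 UMIs of F13a1 and Ly86, genes of the monocyte branch, or of Prss34 and Mcpt8, genes of basophils, were left out. The levels of these genes in members describe the rule and are not findings.

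Both libraries were CD45.2-positive Kit-positive bone marrow, labelled 10 weeks post-transplantation, so both groups share the transplant. One group is named control and the other Utx deleted. The labels used here give no age, strain, deleting allele or number of animals, do not say whether CD45.2 marks donor cells, and do not say what the 2 hashtags mark. CITE-seq reads a cell's transcripts together with barcoded antibodies on its surface. Each group was 1 library, so no test between the groups was possible and the differences below compare 2 libraries, not 2 conditions. The intervals given are exact at 95% and cover counting error only.

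Neutrophils are built in waves. Progenitors first make the azurophil (primary) granule proteins, chiefly myeloperoxidase and the serine proteases neutrophil elastase (Elane), proteinase 3 (Prtn3) and cathepsin G (Ctsg), and later the secondary granule proteins, integrins and receptors of the mature cell. PU.1, C/EBP factors and MYB act at many promoters of this programme. UTX, the product of Kdm6a, removes methyl groups from lysine 27 of histone H3 and is a subunit of the MLL3 and MLL4 methyltransferase complexes.

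The promoters of 3 genes that the results turn on are shown: Elane, which the rule uses to define the members, and Itgam and Fcnb, for which the library labelled Utx-deleted lay past 2-fold lower. Each runs 5′ to 3′ along the gene's strand, from 250 bases before the RefSeq start site to 50 after it, on GRCm38.p6. Capitals mark matches on either strand to GAGGAA (PU.1), TTGCNNAA (C/EBP) or AACNG (MYB). The Elane window is chr10:79886062-79886361 (plus strand), the Itgam window chr7:128062390-128062689 (plus strand) and the Fcnb window chr2:28084829-28085128 (minus strand).
Elane: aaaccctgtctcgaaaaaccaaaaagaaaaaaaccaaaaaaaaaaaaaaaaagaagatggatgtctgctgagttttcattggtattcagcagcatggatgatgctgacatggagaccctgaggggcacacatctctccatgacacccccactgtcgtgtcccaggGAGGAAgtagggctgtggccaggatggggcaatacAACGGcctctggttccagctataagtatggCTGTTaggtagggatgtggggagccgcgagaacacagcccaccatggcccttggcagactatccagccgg
Itgam: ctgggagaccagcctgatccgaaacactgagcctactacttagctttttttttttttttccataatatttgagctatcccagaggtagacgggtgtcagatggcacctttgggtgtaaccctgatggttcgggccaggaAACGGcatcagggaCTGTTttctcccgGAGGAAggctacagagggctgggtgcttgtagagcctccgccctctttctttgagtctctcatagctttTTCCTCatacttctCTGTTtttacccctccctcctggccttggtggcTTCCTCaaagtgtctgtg
Fcnb: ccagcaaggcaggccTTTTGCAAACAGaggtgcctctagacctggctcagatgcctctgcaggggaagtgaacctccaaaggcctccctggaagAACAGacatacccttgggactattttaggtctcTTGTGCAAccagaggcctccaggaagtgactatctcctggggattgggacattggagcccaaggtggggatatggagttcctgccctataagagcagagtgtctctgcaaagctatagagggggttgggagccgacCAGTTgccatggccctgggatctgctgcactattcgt
The Elane window held 1 PU.1 match and 2 MYB matches, the Itgam window 3 and 3, and neither held a C/EBP match. The Fcnb window held no PU.1 match, 2 C/EBP matches and 3 MYB matches, and its first run of capitals is a C/EBP match overlapping a MYB match. Of 32851 promoter windows of the same length, 28.3% held the PU.1 letters, 10.8% the C/EBP letters and 80.3% the MYB letters. A match describes the letters and is not a bound site.

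The matrices held 7827 control and 7883 Utx-deleted barcodes, of which 7098 and 6970 passed. Barcodes rich in both hashtags, which can be a droplet with more than 1 cell, made up 5.08% and 9.11% of those past the gene and mitochondrial filters and were dropped. The libraries shared 17 barcodes, 0 of them members. Members had a median of 29438 gene UMIs (control) and 26109 (Utx-deleted), and 3959.5 and 2858 tag UMIs. Control members thus carried more of both kinds of molecule, and levels below are CPM, the gene's count scaled to a fixed total of gene UMIs, or tag counts per 10000 tag UMIs unless a level per cell is named. The total of tag UMIs includes the hashtags. Pairs of values give the control library first. In summed cells, fewer positive cells and less RNA per cell cannot be told apart.

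Elane-positive progenitors made up nearly the same share of both libraries. They were 5.64% of control cells (exact binomial interval 5.11 to 6.20) and 5.25% of Utx-deleted cells (4.74 to 5.80), a difference of -0.38 percentage points (-1.14 to 0.37). In the control library the share was 6.43% for hashtag 1 and 4.84% for hashtag 2, and in the other 4.67% and 5.72%. Matched by hashtag number, the library with the larger share changed with the hashtag. What the hashtags mark is not known, so equal numbers may not correspond. Set side by side by size, the control share was larger each time (6.43% and 5.72%, 4.84% and 4.67%).

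The share depended on the limit on the monocyte genes. Cells that met every other limit but held more than 4 UMIs of F13a1 and Ly86 numbered 336 in the control library and 791 in the other. With them, protease-positive cells were 10.4% of the control and 16.6% of the Utx-deleted library. Just inside the limit, at 3 or 4 UMIs, were 67 and 68 cells, and just outside it, at 5 or 6 UMIs, 34 and 68. With at most 1 UMI of each exclusion sum the rule took 3.07% and 3.13%, and with that limit in cells thinned to 2000 UMIs each it took 8.37% and 10.3%. The other edges held few cells. At a protease share of 0.5 to 0.6% were 21 and 15 cells, and at 0.4 to 0.5% 31 and 16. At a granule share of 1 to 2% were 18 and 11, and at 2 to 3% 6 and 7.

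**Figure D1:**
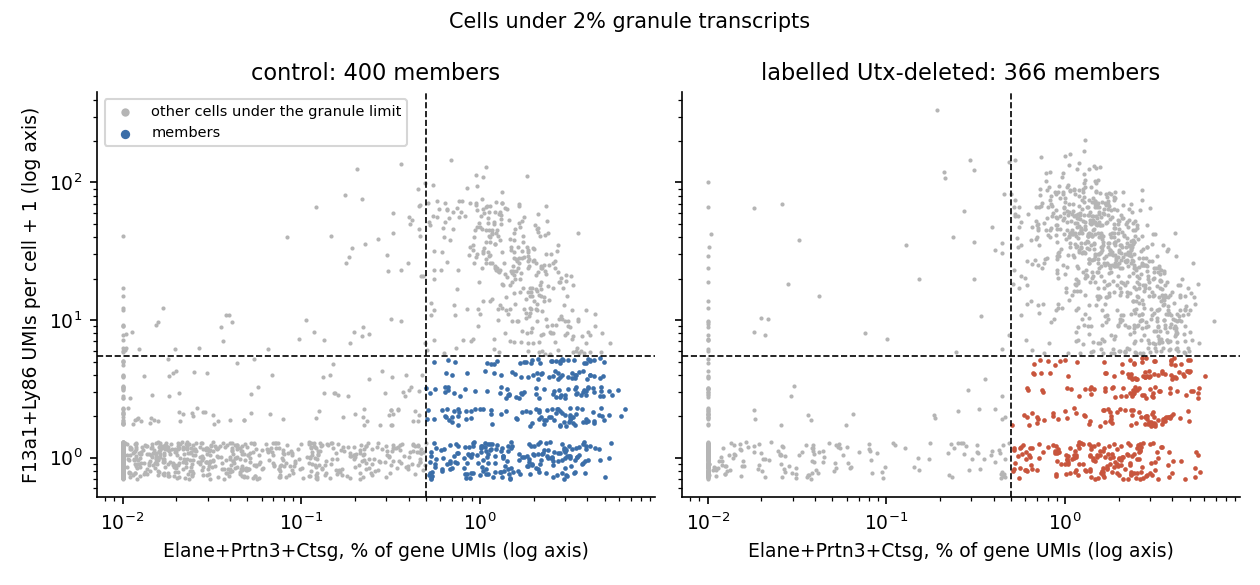
Share of gene UMIs from Elane, Prtn3 and Ctsg (x axis, percent, log scale, values under 0.01 drawn at 0.01) against F13a1 plus Ly86 UMIs plus 1, with small random offsets (y axis, log scale), for cells under the granule and basophil limits, 1 panel per library. Coloured points are the 400 control and 366 Utx-deleted members, dashed lines are the limits, and the cloud above the horizontal line and right of the vertical one holds the 336 control and 791 Utx-deleted cells left out by F13a1 and Ly86 alone.

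The members carried the transcripts their name implies. Over both libraries, Elane was at 8533 and 1733 CPM in members and in all other cells, Prtn3 at 6311 and 1391 CPM and Ctsg at 6164 and 1154 CPM, all genes of the rule. The markers outside the rule followed: Mpo (myeloperoxidase) was at 4932 and 1036 CPM, and Prss57, another azurophil granule protease, at 224 and 43.1 CPM. The contrast was smaller against cells under the granule limit but above the limit on F13a1 and Ly86. In those cells Mpo was at 3911 CPM and Prss57 at 113 CPM. Of the rule genes, Elane was at 6574 CPM there, Prtn3 at 5320 CPM and Ctsg at 4454 CPM. The 15 genes with the largest ratio of members over other cells ran from 4.82-fold to 15.3-fold. Among them were Ms4a3, a gene of granulocyte-monocyte progenitors, at 1359.7 and 282 CPM, Nkg7, a granule membrane protein, at 599 and 108 CPM, Cst7, a cathepsin inhibitor, at 202 and 40.4 CPM, and Fkbp11, a prolyl isomerase of the secretory pathway, at 119.6 and 21.5 CPM. Members were chosen on related genes, so these ratios are a description.

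Markers of other lineages were present in members, some at levels near those of the other cells. Of the 8 maturing neutrophil markers 6 are granule genes that the rule limits, and the other two, Retnlg and Mmp8, summed to 11.7 and 14.2 CPM in members, against 1453 and 1859 CPM in the other cells. Of the 7 monocyte progenitor markers the rule limits F13a1 and Ly86, and the other 5 summed to 686 and 444 CPM in members, against 886 and 1057 CPM in the other cells. The 7 stem and multipotent markers were at 245 and 218 CPM in members and 257 and 135 CPM in the others, and the 6 dendritic cell markers at 168 and 151 CPM in members and 126 and 149.7 CPM in the others. The 7 B-cell markers summed to 26.2 and 23.5 CPM in members, with Ebf1 and Pax5 at 0 in the Utx-deleted library, against 191 and 67.7 CPM in the other cells. Single cells decided some sums. One control member held 2673 of the 2703 erythroid marker UMIs, one held 102 of the 270 megakaryocyte marker UMIs, and one Utx-deleted member held all 160 UMIs of Cma1, a mast cell chymase.

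Members formed a gradient of protease content. In the control library 89 members had a protease share of 0.5 to 1%, 111 of 1 to 2%, 159 of 2 to 4% and 41 of 4% or more, and in the Utx-deleted library 66, 112, 152 and 36. The bins are cut on genes of the rule, so these counts are a description and no comparison of the libraries is drawn from them.

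Genes took different courses along that gradient. From the lowest to the highest bin, Cd34, an early progenitor surface protein, went from 292 to 2.97 CPM in the control and from 225 to 8.77 CPM in the Utx-deleted library. Angpt1, a secreted ligand, went from 608 to 1.98 CPM and from 825 to 17.5 CPM. In the other direction, Gfi1, a repressor that favours the neutrophil fate, went from 55.6 to 146 CPM and from 73.1 to 167 CPM, and Clec12a, a myeloid lectin receptor, from 138 to 1024 CPM and from 219.9 to 1001 CPM. Cebpe, a factor needed for secondary granules, went from 83.8 to 217 CPM in the control but from 158 to 127 CPM in the other library. Padi4, a gene of mature neutrophils, was lower in the highest bin than in the lowest of both, at 16.3 to 10.9 CPM and 5.67 to 0 CPM. It rests on few molecules, 147 and 30 UMIs over all bins, and its control level at 2 to 4% was 9.45 CPM. Camp and S100a8 are genes that the rule limits, so their levels are a description. Camp, a secondary granule peptide, was level in control members, at 169, 166, 170.1 and 168 CPM over the 4 bins, and at 189 CPM in control cells under the protease limit, whereas S100a8, a calcium-binding protein, went from 288 to 3015 CPM. The part of free RNA in a level that is alike across cell types was not tested.

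Kdm6a, the targeted gene, was not lower in the library labelled Utx-deleted. Members held 1120 and 1068 UMIs, a level of 94.1 and 107 CPM and a log2 ratio of 0.18 (0.06 to 0.30). By hashtag the levels were 93.8 and 94.3 CPM in the control and 108 and 106 CPM in the other library, higher with both. The labels do not give the deleting allele. If it removes an internal exon, reads from the 3-prime end cannot reveal the loss, so these counts do not check the label. Of the 20 measured genes of the UTX, MLL3 and MLL4 complexes and related enzymes, 0 were past 2-fold, with a median log2 ratio of -0.01. Kdm6b, a related demethylase, came nearest, at 11.6 and 6.09 CPM, a log2 ratio of -0.92 (-1.39 to -0.48). Ncoa6, a subunit of the MLL3 and MLL4 complexes, was at 39.8 and 53.8 CPM.

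More genes were lower than higher in the library labelled Utx-deleted. Of 9791 genes with at least 100 UMIs in members, 67 lay past 2-fold on the higher side (0.684%) and 148 on the lower side (1.51%), while the median log2 ratio was -0.01. Among the 12106 genes with at least 20 UMIs, the minimum used for the gene lists, 2.21% were past 2-fold higher and 3.01% past 2-fold lower, and the counts of each list below are read against these. Inside a library, 44 genes in the control and 55 in the other differed by 2-fold between hashtags. Between libraries 217 did so within hashtag 1 and 317 within hashtag 2. With both hashtags, 29 genes were past 2-fold higher, 102 lower and 0 in opposite directions.

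**Figure D2:**
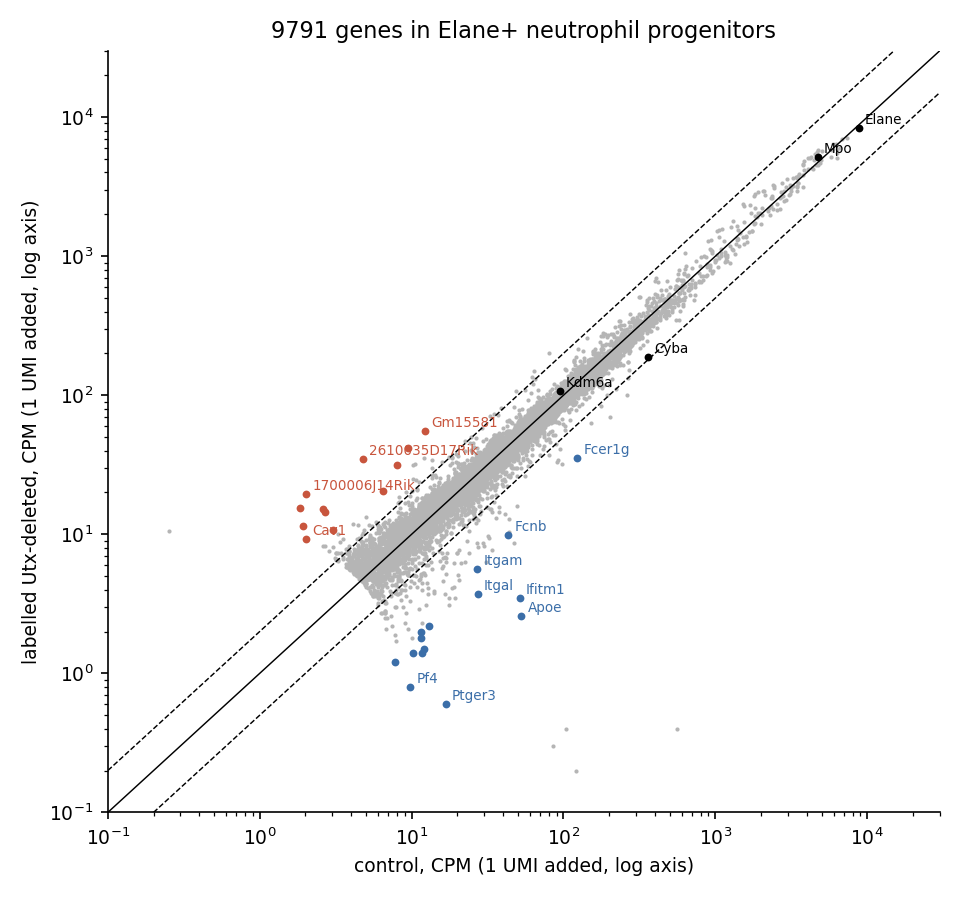
CPM of 9791 genes in control members (x axis) and Utx-deleted members (y axis), both on log scales with 1 UMI added to each sum; the solid line is equality and dashed lines are 2-fold. Most genes lie near equality, with Elane and Mpo at the top, while Ptger3 and Apoe lie below the dashed lines, Gm15581 and 2610035D17Rik above them, and the isolated grey point furthest right at the bottom is the haemoglobin gene Hbb-bs, with 6639 of 6657 control UMIs in 1 cell.

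None of the azurophil granule genes outside the rule was past 2-fold in either direction. The list without the rule genes had 22 measured genes, of which 16 were below 0, a range from -0.67 to 0.19 and a median log2 ratio of -0.21. With the rule genes, whose levels the choice of members constrains, the median of the 25 was -0.13. The rule genes Elane, Prtn3 and Ctsg stood at 8756 and 8310.4, 6604 and 6018, and 5930.3 and 6398 CPM. Mpo, which the rule did not use, was at 4640 and 4786 CPM in control hashtags 1 and 2 and 5026 and 5249.6 CPM in those of the other library, a log2 ratio of 0.13 (0.12 to 0.15), and Prss57 was at 228 and 220.2 CPM. The lower end of the list held lysozyme (Lyz2) at 179.5 and 113 CPM, the granule membrane tetraspanin Cd63 at 722 and 483 CPM and Serpinb1a, an inhibitor of the proteases, at 581 and 402 CPM. Its upper end was Plac8 at 5007 and 5726 CPM.

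Among early and secondary granule genes, Itgam, Fcnb and Padi4 were past 2-fold lower. They were 3 of the 21 measured genes of the list that the rule did not use, 0 were past 2-fold higher, and the median log2 ratio was -0.45. With the rule genes, which the limit on granule transcripts holds down, the median of the 27 was -0.16. Fcnb (ficolin B), a lectin of the pre-neutrophil stage whose promoter is shown above, was at 34.3 and 54.4 CPM in control hashtags 1 and 2 and at 12.3 and 8.08 CPM in those of the Utx-deleted library. The hashtag populations of the libraries did not overlap, and the log2 ratio was -2.13 (-2.47 to -1.82) from 513 and 98 UMIs. The share of all tested genes without such overlap is not given, so here and below its absence only describes the gene named. Over the protease bins Fcnb went through 2.38, 5.11, 59.7 and 208 CPM in the control library and 1.03, 0.579, 6.86 and 97.95 CPM in the other, from 2, 2, 27 and 67 UMIs in the latter. The log2 ratio was -3.07 in members with 2 to 4% protease UMIs and -1.07 in those with 4% or more. By granule share it was -3.56 at 0.1 to 0.5% and -0.74, short of 2-fold, at 0.5 to 2%, a bin of 33 control and 19 Utx-deleted members. Padi4, the enzyme that citrullinates histones in neutrophils, gave 147 and 30 UMIs and a log2 ratio of -2.01 (-2.66 to -1.47). Haptoglobin (Hp) was at 269 and 151 CPM, short of 2-fold. The rule genes of this programme lay between -0.16 (S100a8) and 0.32 (Ngp), and S100a8 differed by hashtag, with log2 ratios of 0.35 and -0.64.

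Itgam was the lowest gene of that list, and its protein tag was lower too. Itgam encodes CD11b, the alpha subunit of the integrin Mac-1, and lies at chr7:128062640-128118491 on the plus strand of GRCm38. It was at 25.96 and 28.2 CPM in control hashtags 1 and 2 and at 4.67 and 6.06 CPM in those of the Utx-deleted library, without overlap. UMIs summed to 321 and 55, a log2 ratio of -2.27 (-2.74 to -1.88). Over the protease bins Itgam went through 16.7, 20.98, 29.6 and 62.4 CPM in the control library and 5.15, 5.50, 5.34 and 7.31 CPM in the other. In the highest bin these levels rest on 63 and 5 UMIs. The CD11b tag had a median of 15 UMIs per control member and 6 per Utx-deleted member, and made up 64.8 and 25.4 per 10000 tag UMIs, a log2 ratio of -1.35. Its median over the bins was 9, 12, 22 and 54 UMIs in the control and 4, 5, 7 and 8.5 in the other library. RNA and tag thus showed the same order of libraries in each bin.

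Itgal, which encodes CD11a, was at 26.1 and 28.6 CPM in the control hashtags and 3.44 and 3.70 CPM in the others, with 323 and 36 UMIs and a log2 ratio of -2.88 (-3.46 to -2.42). Itgb2, the beta subunit with which both alpha subunits pair, was at 15.8 and 7.19 CPM, a log2 ratio of -1.12 (-1.55 to -0.74). For both genes the hashtag populations of the libraries did not overlap, a description given without the share over all genes.

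Of 36 measured receptor and surface genes, 6 were past 2-fold lower and 0 higher, with a median log2 ratio of -0.27. Fcer1g, the signalling gamma chain shared by several Fc receptors, was at 103 and 149.9 CPM in the control hashtags and 39.1 and 32.99 CPM in the others, a log2 ratio of -1.79 (-1.96 to -1.62). The other 5 were Itgam, Itgb2, Flt3, Fcgr4 and Il1r1, of which the Fc receptor gene Fcgr4 (36 and 4 UMIs) and the interleukin 1 receptor gene Il1r1 (31 and 3 UMIs) rest on few molecules. Csf3r, the receptor for G-CSF, was at 100.1 and 80.6 CPM and Kit, the receptor for stem cell factor, at 157 and 197 CPM. Ifngr1, a chain of the interferon gamma receptor, was at 402 and 532 CPM.

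The phagocyte oxidase, the enzyme with which neutrophils make superoxide, was lower in all 7 of its measured genes, though 0 were past 2-fold. The median log2 ratio was -0.61, and -0.48 and -0.73 with hashtags 1 and 2. Cyba, the small membrane subunit, was at 352 and 371 CPM in the control hashtags and 212 and 172 CPM in the others, a log2 ratio of -0.94 (-1.01 to -0.86). The cytosolic subunits Ncf4 and Ncf1 were at 81.8 and 46.04 CPM and at 88.3 and 51.7 CPM, and the GTPase Rac2 at 265 and 174 CPM. Over the protease bins Cyba went through 169, 247, 468 and 754 CPM in the control and 123, 156, 209 and 418 CPM in the other library, lower in each bin. Per cell, the list made up a median of 0.0986% of UMIs in control members (25th to 75th percentile 0.0756 to 0.136%) and 0.0707% in the others (0.0566 to 0.086%). With no limit on F13a1 and Ly86 the median log2 ratio was -0.38.

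**Figure D3:**
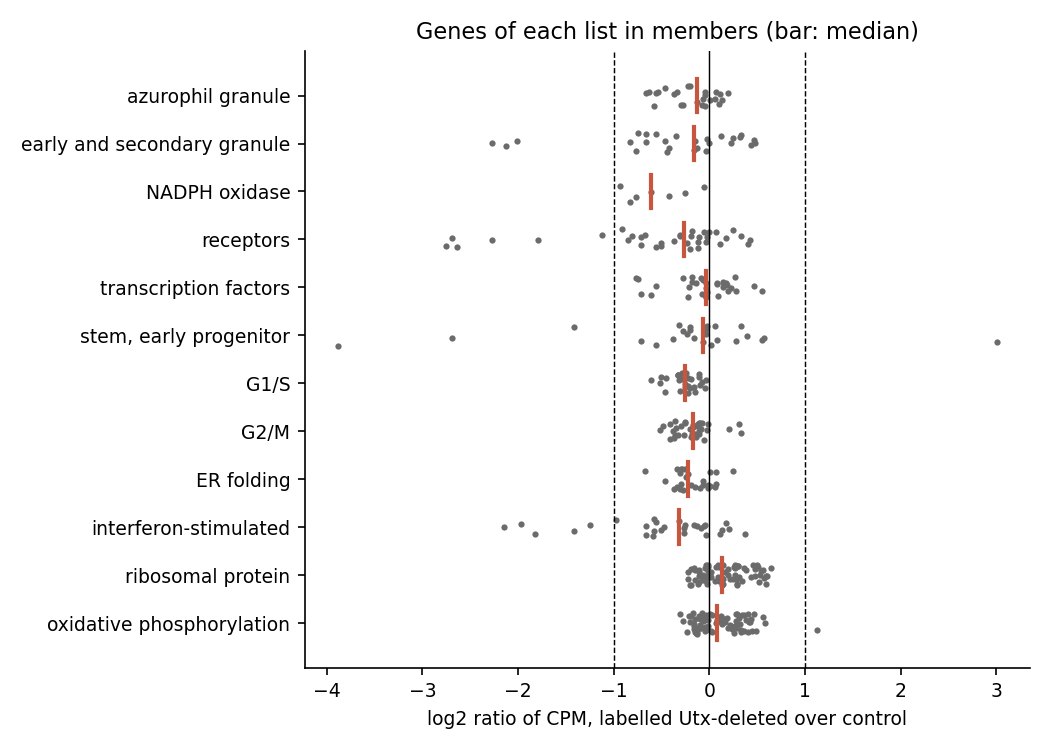
Log2 ratio of CPM in members, library labelled Utx-deleted over control, for the genes with at least 20 UMIs (points) of each list, with the list's median marked; dashed lines are 2-fold and random offsets separate points. All 7 oxidase genes and all 30 G1/S genes lie below equality, and all 25 azurophil genes, 3 of them rule genes, lie inside the 2-fold lines.

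The transcription factors of granulocyte fate were close to equality over all members. Of 34 measured, 0 were past 2-fold and the median log2 ratio was -0.03. Spi1, which encodes PU.1, was at 232 and 226 CPM, Cebpa at 129.5 and 112 CPM, Cebpe, needed for secondary granules, at 144 and 141 CPM and Gfi1 at 106 and 121 CPM. The order of the libraries for Cebpe differed by protease bin, at 83.8 and 158 CPM in the lowest and 217 and 127 CPM in the highest. Irf8, which favours the monocyte fate, was the lowest of the list at 25.1 and 48.5 CPM in the control hashtags and 17.2 and 22.4 CPM in the others, a log2 ratio of -0.77 (-1.02 to -0.53). Its sign differed between protease bins, at -1.10 and -1.08 in the lower 2 and 0.31 at 2 to 4% (12.5 and 15.5 CPM). The rule limits F13a1 and Ly86, and in the cells above that limit Irf8 was at -0.20. Erg, an ETS factor of stem and progenitor cells, was the highest at 104 and 102 CPM in the control hashtags and 149 and 154 CPM in the others, a log2 ratio of 0.55 (0.44 to 0.66). The hashtag populations of the libraries did not overlap for either gene, again without the share over all genes.

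Stem and early progenitor genes went in both directions. Of 26 measured, 1 was past 2-fold higher and 3 lower, with a median log2 ratio of -0.06. Prdm16, a stem cell regulator, was at 0.583 and 0.596 CPM in the control hashtags and at 6.89 and 4.21 CPM in the others, 7 and 53 UMIs, a log2 ratio of 3.004 (2.03 to 4.55). The lower ones were Flt3, Ifitm1 and Ifitm3, an interferon-induced membrane protein at 91.2 and 34.05 CPM. Hlf, a stem cell factor, was at 22.4 and 13.6 CPM and Angpt1 at 188 and 274 CPM. Of 18 measured monocyte progenitor genes 3 were past 2-fold lower, Slpi, Mpeg1 and Ccr2, and 0 higher. Slpi, a protease inhibitor, was at 175 and 83.6 CPM. The median of that list was -0.20, and -0.45 over the 16 genes that the rule did not use, but the members were selected on F13a1 and Ly86, and without that limit the median of the whole list was 0.10.

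The genes with the lowest ratios, 12 by the rule stated with the processing, began with Ptger3, a prostaglandin E receptor (chr3:157566892-157645888, plus strand). It was at 18.7 and 14.1 CPM in the control hashtags and 0.492 and 0.505 CPM in the others, 199 and 5 UMIs, a log2 ratio of -4.81 (-6.70 to -3.82). Apoe, a lipid carrier, was at 52.9 and 52.4 CPM in the control hashtags and 2.71 and 2.36 CPM in the others, a log2 ratio of -4.34 (-5.04 to -3.82). Ifitm1, an interferon-induced membrane protein, was at 52.8 and 49.8 CPM in the control hashtags and 5.66 and 1.85 CPM in the others, a log2 ratio of -3.88 (-4.47 to -3.42). In these 3 genes the UMIs came from 119, 182 and 175 control members, so no single cell carried the difference.

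Flt3, the receptor tyrosine kinase of multipotent and lymphoid-primed progenitors, was at 9.92 and 13.7 CPM in the control hashtags and 1.72 and 1.68 CPM in the others, a log2 ratio of -2.69 (-3.58 to -2.03). It was highest in the lowest protease bin of both libraries, at 35.8 and 6.70 CPM. Plxnc1, a semaphorin receptor, gave 154 and 21 UMIs and Ebi3, a cytokine subunit, 137 and 19 UMIs. The others were Itgal, described above, and Itih5, Fstl4, Hivep3 and Mctp2, with log2 ratios from -3.06 to -2.69. In cells thinned to 2000 UMIs each, Mctp2 was at -0.60, short of 2-fold. Pf4, a platelet chemokine, met the rule through 1 cell: 96 of its 116 control UMIs came from a single member, and 20 control UMIs against 7 remained without it. Within hashtag 1 its log2 ratio was -0.83, and at a protease limit of 1% it was -0.78, both short of 2-fold.

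Pf4 and Apoe also stand in the list of megakaryocyte and erythroid genes. The median log2 ratio of its 12 measured genes was -2.73, and -1.49 and -1.05 with hashtags 1 and 2. Of the 12 genes, 9 were past 2-fold lower and 0 higher. Hbb-bs, Hbb-bt, Hba-a1 and Hba-a2, the 4 haemoglobin genes among them, had all but 4 to 18 of their control UMIs in 1 cell for each gene. Without cells rich in other-lineage markers, 6 of 9 were past 2-fold lower and the median was -1.21. Car2 (carbonic anhydrase 2) was at 22.4 and 6.19 CPM, with UMIs in 157 and 47 members and a log2 ratio of -1.83. Itga2b, the integrin subunit CD41, was at -1.17 with UMIs in 93 and 42 members, and Plek (pleckstrin) at -1.20. The transferrin receptor gene Tfrc was at -0.27, Zfpm1, a cofactor of GATA1, at -0.18, and Blvrb, a reductase of haem breakdown, at 0.52. Over all genes tested, leaving out those cells gave 67 genes past 2-fold higher and 144 lower, which held 66 of the 67 and 141 of the 148 found with all members. The part of free RNA was not tested.

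Of the 12 genes with the highest ratios, several are known only by a clone or model number. 2610035D17Rik was at 3.06 and 6.95 CPM in the control hashtags and 25.1 and 41.2 CPM in the others, a log2 ratio of 2.86 (2.47 to 3.31). Gm30382 was at 11.7 and 5.76 CPM in the control hashtags and 51.2 and 35.4 CPM in the others. Over both libraries it was 6.76-fold higher in members than in all other cells together. Its level was 25.5 CPM in members, 17.9 CPM in cells under the protease limit and 0.842 CPM in cells at or above the granule limit. Some lie inside other genes on the opposite strand, and whether the counting used strand is not given in the sources used here, so reads of such pairs may not be told apart. Cav1 (caveolin), at 1.93 and 9.09 CPM, lies inside Gm15581, at 12.1 and 55.3 CPM, and in cells thinned to 2000 UMIs its log2 ratio was 0.94, short of 2-fold. The first in rank, 1700006J14Rik, lies inside Hmga2, a chromatin protein of fetal stem cells at 17.6 and 36.1 CPM, and spread between hashtags, at 2.33 and 1.39 CPM in the control and 6.89 and 28.1 CPM in the other library.

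Among the protein-coding genes at the top, Zfp827, a zinc finger protein, was at 1.90 and 1.59 CPM in the control hashtags and 14.02 and 16.2 CPM in the others, a log2 ratio of 3.06 (2.45 to 3.85). Ctsf, a lysosomal cathepsin, was at 2.48 and 2.78 CPM in the control hashtags and 14.02 and 14.8 CPM in the others, a log2 ratio of 2.44 (1.91 to 3.08), which was 0.91 in cells thinned to 2000 UMIs, short of 2-fold. Itga1, a collagen-binding integrin subunit, gave 30 and 152 UMIs and Ptprk, a receptor phosphatase, 22 and 114 UMIs. The rest were Sncaip with 95 and 314 UMIs, Bex1 with 35 and 106 UMIs and Il17rb, an interleukin receptor subunit, with 76 and 204 UMIs. In all 24 named genes the hashtag populations of the libraries did not overlap, which the choice of genes by both hashtags favours.

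**Figure D4:**
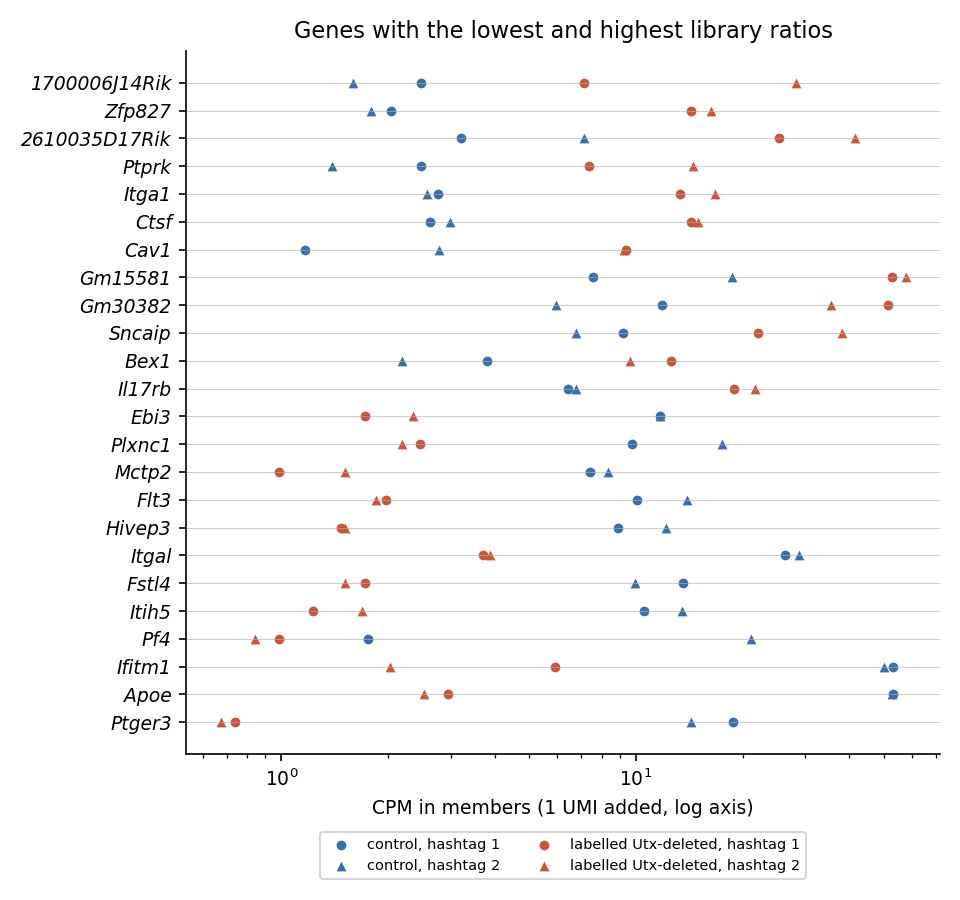
CPM in members (x axis, log scale) of the 12 genes with the lowest and the 12 with the highest library ratio, in the 4 populations given by library and hashtag. The control and Utx-deleted points lie on opposite sides for each gene; the control point of Pf4 for hashtag 1, at 1.60 CPM before 1 UMI was added for the plot, is close to the Utx-deleted points.

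Most of these differences were also present in other cells, side by side with the members and with no test of the difference between cell sets. In cells under the granule limit with more than 4 UMIs of F13a1 and Ly86, Ptger3 had a log2 ratio of -4.80, Ifitm1 of -3.997, Zfp827 of 2.77 and 2610035D17Rik of 2.28. In those cells each of the 12 lowest and 12 highest genes was past 2-fold in the same direction as in members. In cells at or above the granule limit Ptger3, Ifitm1, Zfp827 and 2610035D17Rik gave -2.58, -1.58, 2.42 and 2.11. Fstl4 was at -4.73 there, beside -3.00 in members, while Mctp2 and Plxnc1 were short of 2-fold at -0.67 and -0.47. Pf4 was at 0.44 there and at 1.06 under the protease limit, opposite to its sign in members. In cells under the protease limit Ptger3 gave -1.91, Zfp827 2.09 and 2610035D17Rik 2.02, while Ifitm1 gave -0.38, short of 2-fold. Itgam was at -2.27 in members, -1.01 in the cells rich in F13a1 and Ly86, -0.34 in cells under the protease limit and -0.03 in cells at or above the granule limit, where its level was 919 and 902 CPM. In the same order Fcer1g gave -1.79, -0.74, 0.15 and -0.23, Itgb2 -1.12, -0.43, 0.43 and 0.06, and the median of the oxidase list -0.61, -0.28, -0.13 and -0.16. For Itgam, Fcer1g, Itgb2 and the median of the oxidase list the value in members was the lowest of the 4. This did not hold for Padi4, at -2.01 in members and -3.13 in the cells rich in F13a1 and Ly86. Nor did it hold for the oxidase genes Ncf1 and Ncf4, at -0.77 and -0.83 in members and -0.98 and -0.88 under the protease limit. Fcnb gave -2.13, -1.30, -1.12 and -0.88. Under the protease limit the intervals of Itgam (-0.75 to 0.03) and of Fcnb (-3.36 to 0.12, from 29 and 4 UMIs) included 0.

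Genes of DNA replication were lower by a small amount. All 30 G1/S genes had log2 ratios below 0, 0 were past 2-fold, and the median was -0.25. Rrm2, a subunit of ribonucleotide reductase, was at 132 and 86.2 CPM and Pcna, the replication clamp, at 236 and 165 CPM. Of 36 G2/M genes 33 were below 0, with a median of -0.18. Per cell, the G1/S genes made up a median of 0.374% of UMIs in control members (25th to 75th percentile 0.261 to 0.477%) and 0.271% in the others (0.175 to 0.406%), so the cells overlapped widely. In cells at or above the granule limit the G1/S and G2/M medians were -0.36 and -0.25.

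Genes of protein folding and translation differed by less than 2-fold. Of 27 endoplasmic reticulum genes 21 were below 0, with a median of -0.22, and Hspa5, the main chaperone of that compartment, was at 1342 and 1040.4 CPM. The 80 cytosolic ribosomal protein genes had a median of 0.13, with 51 above 0. Of 78 oxidative phosphorylation genes 1 was past 2-fold, Cox6b2, a cytochrome oxidase subunit, at 32.5 and 70.8 CPM. Of 29 interferon-stimulated genes 5 were past 2-fold lower, Ifitm3, Slfn2, Zbp1, Usp18 and Phf11d, and 0 higher, with a median of -0.32, though Usp18 (20 and 4 UMIs) and Phf11d (20 and 3 UMIs) rest on few molecules. Of 18 immediate-early and heat shock genes 3 were past 2-fold lower, Zfp36, Hspa1a and Hspa1b. The heat shock gene Hspa1a differed more inside the control library, at 8.31 and 35.9 CPM by hashtag, than hashtag 1 did between libraries, at 8.31 and 7.38 CPM.

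On the cell surface, members of the library labelled Utx-deleted had a higher CD34 tag as well as the lower CD11b tag. The CD34 tag had medians of 18 and 17.5 UMIs per cell in control hashtags 1 and 2 and 29 and 27 in the others. Its share was 58.5 and 121 per 10000 tag UMIs, a log2 ratio of 1.04. Over all members the Cd34 transcript was at 141 and 119 CPM, a log2 ratio of -0.23 (-0.34 to -0.13), short of 2-fold. Its log2 ratio differed in sign between bins, at -0.38 and -0.44 in the lower 2 protease bins and 0.48 in the bin of 2 to 4%, where the transcript was at 48.5 and 67.8 CPM and the tag had medians of 12 and 24 UMIs. The tag was lower at higher protease content in both libraries, with medians from 30 to 5 UMIs in the control and from 46 to 4 in the other. In cells under the protease limit the log2 ratio of the CD34 share was -0.15, and in cells at or above the granule limit -0.05. In all other kept cells together it was 0.19. The tag ratio in the cells rich in F13a1 and Ly86 is not given here, so the difference cannot be called particular to members.

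CD117, the Kit protein on which the cells were sorted, had medians of 212 and 201 UMIs per cell and a log2 ratio of its share of 0.40, beside 0.33 for Kit RNA. CD41, the integrin subunit encoded by Itga2b, had medians of 13 and 5 UMIs and a log2 ratio of -0.77, and Itga2b RNA was at 11.8 and 5.19 CPM. CD16/32, the tag of Fc gamma receptors, had medians of 426.5 and 254.5 UMIs and a log2 ratio of -0.33. CD48, a receptor of the SLAM family, had medians of 911.5 and 595.5 UMIs but a log2 ratio of -0.14 by share, the Utx-deleted members having fewer tag UMIs in all. Gr1, a tag of Ly6 proteins, had a log2 ratio of 0.02 that differed by hashtag, at 0.59 and -0.36. CD135, the Flt3 protein, had medians of 1 and 0 UMIs, too few to set beside the Flt3 transcript. With the hashtags left out of the tag total, log2 ratios were 0.49 (CD117), -0.68 (CD41), -0.24 (CD16/32), -0.04 (CD48) and 0.11 (Gr1). For CD34 and CD11b they were 1.14 and -1.26.

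**Figure D5:**
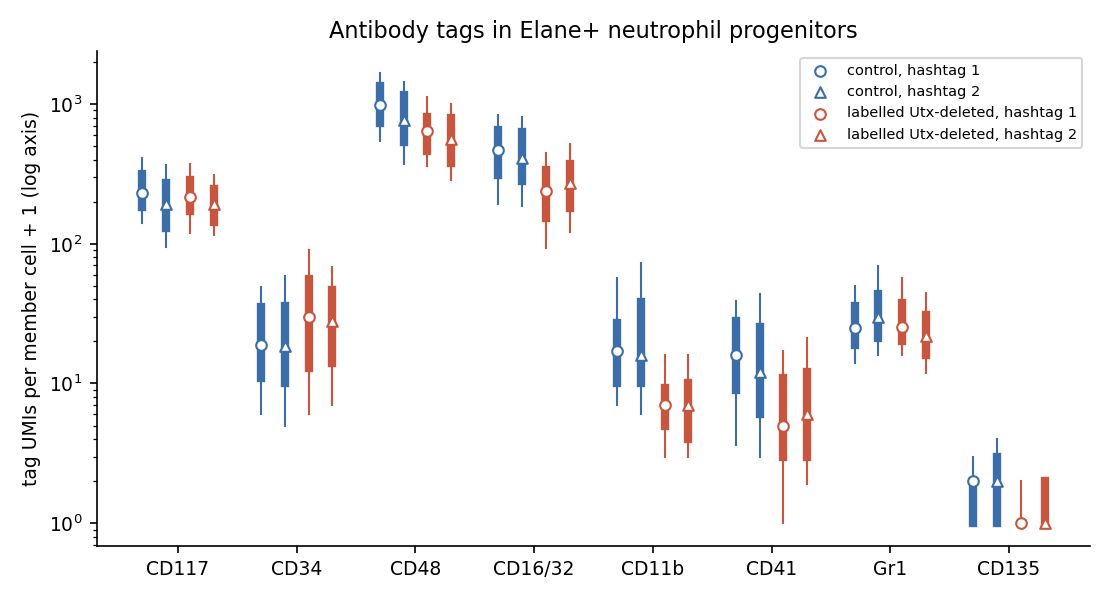
Tag UMIs per member cell plus 1 (y axis, log scale) for antibody tags in the 4 populations of library and hashtag: the marker is the median, the thick bar the 25th to 75th percentile and the thin line the 10th to 90th percentile. CD34 medians are higher and CD11b, CD41, CD48 and CD16/32 medians lower with both hashtags of the Utx-deleted library, whose members carried fewer tag UMIs in all.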

How the data were processed

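Gene and tag UMI counts were deposited by the authors as 1 raw matrix per library (32285 genes and 15 tags, of which 2 are hashtags), made from 10x 3-prime libraries with Cell Ranger 7.1.0 on mm10, per the submitters' processing notes. The strand setting is not given in the sources used here. Of the gene IDs, 32158 matched GENCODE M21 on the same build, which gave coordinates.

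Cells needed at least 500 genes and under 10% mitochondrial UMIs, and barcodes with at least 100 UMIs of both hashtags within 5-fold were dropped. Scrublet's automatic threshold marked 0.0282% and 0.0143% of cells and so did not work. Member counts were summed per library, 1 UMI was added, and ratios of CPM were given with exact conditional intervals. With 1 library per group there was no test, and "called" means past 2-fold. UMI counts collapse PCR duplicates, and intervals cover counting error only.

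Named genes were those of the rule, the markers, the fixed lists, the 15 highest in members over other cells, and the 12 highest and 12 lowest ratios among genes with at least 100 UMIs, past 2-fold, past 1.5-fold with each hashtag alone and seen in at least 20 members of the higher library. The members, lists and rules were chosen with earlier results of these data known. On simulated counts for members, 94.9% of 98 genes set 3-fold apart passed 2-fold, and 0 of 9572 unchanged genes did. Measured counts of 44 genes in the control and 55 in the other library differed by 2-fold between hashtags. The simulated 0 is therefore no measure of the spread between samples. Alternatives covered filters, thresholds, hashtags, scaling, thinning and tag scaling. Python 3.11.15, NumPy 2.4.6, SciPy 1.17.1, pandas 2.3.3 and Scanpy 1.11.5 were used.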

Additional observations from a re-analysis of the deposited data

How the results depend on the processing

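No paired analysis was possible because each group is 1 library. The difference in the share of members, -0.38 points, became -1.76 with hashtag 1, 0.87 with hashtag 2, 6.23 with no limit on F13a1 and Ly86 and 1.97 with the rule on thinned cells. The 67 higher genes became 43 with at most 1 UMI of each exclusion sum, 26 with hashtag 1, 129 with no F13a1 and Ly86 limit (35 of them among the 67), 6 and 23 in cells thinned to 2000 and 10000 UMIs, 268 and 15 with minimums of 20 and 500 UMIs, and 289 at 1.5-fold. The 148 lower genes became 81 with hashtag 1, 9 and 62 in the thinned cells, 364 and 31 with those minimums, and 390 at 1.5-fold. The genes that reached the minimum changed too, from 9791 to 8435 with hashtag 1, 8702 with at most 1 UMI of each exclusion sum and 11183 with no F13a1 and Ly86 limit, and fewer were tested after thinning and with higher minimums. Over the main 9791 genes, hashtag 1 gave 73 higher and 144 lower. For the changes in the share of members, the lists and the tags the cause was not tested. The median of the early and secondary granule list was -0.38 with at most 1 UMI of each exclusion sum, -0.35 with hashtag 2 and -0.38 with genes of at least 100 UMIs. Over its genes measured in all members, it was -0.21 and -0.26 with hashtags 1 and 2. The stem list was -0.24 at a protease limit of 0.25% and -0.34 with no F13a1 and Ly86 limit, where the oxidase list was -0.38 and the monocyte list turned to 0.10. The G2/M list was -0.44 and -0.30 in cells thinned to 2000 and 10000 UMIs. With genes chosen anew in each setting, the megakaryocyte and erythroid list ranged from -4.87 in cells thinned to 2000 UMIs to -1.15 with at most 1 UMI of each exclusion sum. Over the genes measured in all members, it was -1.49 and -1.05 with hashtags 1 and 2. Of the values of the 24 named genes under these settings, 47 moved beyond their counting interval, 361 did not, and none turned sign. These genes were chosen for extreme ratios in the same direction with both hashtags, and the settings reuse cells of the same libraries. An unchanged sign was therefore favoured by the choice. Among tags, CD117 was 0.53 with hashtag 1 and 0.51 by centred log-ratio, CD34 was 1.27 with hashtag 1, and CD16/32 was -0.19 with hashtag 2. CD48 was -0.034 and -0.027 with hashtags 1 and 2 and -0.025 by centred log-ratio. CD11b was -0.96 with no F13a1 and Ly86 limit and -0.84 by centred log-ratio. Sparse tags turned sign at a protease limit of 1% and a granule limit of 0.5%: Sca1 to 0.13 and 0.037, CD201 to 0.39 and 0.26, and CD127 to 0.075 and 0.011. By centred log-ratio CD201 was 0.25 and CD135 0.066. TMM scaling moved the median of all genes by 0.00991. The no-limit setting, thinning to 10000 UMIs, the list medians without the rule genes and leaving out cells rich in other-lineage markers were chosen after seeing the data.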

Other observations

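The 7 genes that come first here were chosen after their values were seen, because they were lower in members of the library labelled Utx-deleted, and stand for no gene group. Tyrobp, the signalling adaptor that works beside Fcer1g, was at 189 and 219 CPM in control hashtags 1 and 2 and 73.8 and 66.7 CPM in those of the other library, a log2 ratio of -1.53 (-1.66 to -1.41). Coro1a, an actin regulator of leukocytes, was at 242 and 289.7 CPM in the control hashtags and 116 and 88.5 CPM in the others, a log2 ratio of -1.39 (-1.50 to -1.29). Pglyrp1, a peptidoglycan-binding protein, was at 151 and 63.4 CPM, Lbp, which binds lipopolysaccharide, at 98.1 and 31.96 CPM, and Aoah, an enzyme that inactivates lipopolysaccharide, at 30.6 and 6.19 CPM. Hvcn1, the proton channel that accompanies the phagocyte oxidase, was at 31.9 and 9.69 CPM, and complement C3 at 49.6 and 15.8 CPM. For these 7 genes the hashtag populations of the libraries did not overlap, which their choice as lower genes favours.

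In the other direction, also chosen after their values were seen, Cenpv was at 62.6 and 65.9 CPM in the control hashtags and 144 and 152 CPM in the others, a log2 ratio of 1.22 (1.09 to 1.34). Ncam1, a neural cell adhesion molecule, was at 64.8 and 132 CPM, Klf9, a Krüppel-like factor, at 34.6 and 73.5 CPM, and Sdc2, a cell surface proteoglycan, at 10.5 and 31.8 CPM. Mt1, a metallothionein, was at 143 and 259.6 CPM, short of 2-fold, and was higher in each of the 4 protease bins.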
